A study of Homo sapiens with 10 samples.

Results

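The identifiers described here are the piRNA identifiers of 29 and 30 nucleotides (nt) that held at least 100 counts summed over the 5 small RNA libraries, without piR-hsa-11361. They numbered 175 of the 32826 identifiers in the piRNA tables, 83 of 29 nt and 92 of 30 nt. Of the 14676 identifiers of these lengths in the tables, 1546 had a count in any library and 1370 of these stayed under 100 counts. The members were thus chosen by length and abundance over all libraries together, so their abundance is a description and carries no test.

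PIWI-interacting RNAs (piRNAs) are small RNAs that are longer than miRNAs, are made without Dicer and guide proteins of the PIWI clade, which silence transposable elements in germ cells. Most somatic cells hold little PIWI protein. Collections of piRNA sequences are known to include entries that match pieces of tRNA, rRNA or small nucleolar RNA, so a read counted at an identifier need not have been bound by a PIWI protein. The tables name each identifier by number and length alone. Its sequence, genomic position, host transcript and targets were not used here, and no function is given to any single identifier.

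By their labels the libraries came from BEAS-2B, an immortalised line of human bronchial epithelial cells, made into stable lines with a pCMV6 vector for TAF1C (3 small RNA and 3 long RNA libraries) or with the empty vector (2 of each), all kept under G418. The TAF1C protein belongs to the SL1 complex, through which RNA polymerase I finds the promoters of ribosomal RNA genes. The study asked what raised TAF1C does to the RNAs of these cells. Whether the replicates were separate cultures is not stated, so p-values speak for the spread of these libraries only, and that spread may be technical.

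The piRNA counts summed to 2527214, 2369904 and 2065555 in the libraries labelled TAF1C and to 2820570 and 3586390 in the empty vector libraries. The labels were not borne out by the transcript of TAF1C (ENSG00000103168), which was at 64.0, 59.0 and 67.0 CPM (counts per 1000000 of the library, scaled by TMM, the trimmed mean of M values) in the long RNA libraries labelled TAF1C and at 64.4 and 77.7 CPM in those of the empty vector (log2 fold change -0.17 ± 0.13 (SE), edgeR adjusted p = 0.363). With library totals it was lower in the libraries labelled TAF1C (adjusted p = 0.0362). With a single empty vector library, where the spread comes from the libraries labelled TAF1C alone, leaving out replicate 1 of the empty vector gave an adjusted p = 0.00115 and leaving out its replicate 2 gave 0.607. The empty vector libraries also carried transcripts of genes of other cell types. Photoreceptor markers, 10 in all, summed to between 6.91 and 10.3 CPM in the libraries labelled TAF1C and to 1199 and 1222 CPM with the empty vector, and 9 of the 9 tested were lower in the libraries labelled TAF1C. The 10 neuronal markers summed to between 6.46 and 6.71 CPM in the libraries labelled TAF1C and to 358 and 271 CPM with the empty vector, with 8 of 8 tested lower in the libraries labelled TAF1C. In the small RNA libraries themselves the signal of hsa-miR-9-5p, a miRNA of neural cells, was 342, 454 and 357 in those labelled TAF1C and 14872 and 16092 in those of the empty vector. The other 4 neural or photoreceptor miRNAs looked at gave mixed values. hsa-miR-124-5p was at 106, 155 and 203 in the libraries labelled TAF1C and at 73.5 and 87.7 in those of the empty vector, and hsa-miR-182-5p was listed at 0 in every library but empty vector replicate 1, where it was at 6095. hsa-miR-183-5p was at 2276, 2614 and 2811 in the libraries labelled TAF1C and at 3432 and 3613 in those of the empty vector. hsa-miR-96-5p was at 682, 809 and 716 with the TAF1C label and at 1033 and 975 with the empty vector. The 8 epithelial markers summed to between 1331 and 1446 CPM in the libraries labelled TAF1C and to 364 and 360.3 CPM with the empty vector, and of the 7 tested, 3 (KRT7, KRT8 and KRT18) were higher, 1 (EPCAM) was lower and 3 did not pass. KRT7 was at 1052, 967 and 1062 CPM in the libraries labelled TAF1C and 223 and 247 CPM with the empty vector, while EPCAM, a defining marker, was under 1 CPM in each library labelled TAF1C and at 14.7 and 1.102 CPM with the empty vector. The 12 germ cell markers, which bear on piRNAs, summed to between 11.1 and 14.2 CPM in the libraries labelled TAF1C and to 28.95 and 12.1 CPM with the empty vector, with 10 of the 12 under 1 CPM in every library labelled TAF1C. The 8 haematopoietic markers summed to between 31.8 and 36.1 CPM in the libraries labelled TAF1C and to 53.7 and 39.3 CPM with the empty vector. Whether the empty vector lines are BEAS-2B cannot be settled from these values, so in every comparison below the vector cannot be told apart from any other difference between the lines. The part of these other transcripts in the differences below was not tested, and in bulk RNA fewer cells of a type cannot be told apart from less RNA per cell.

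A few members held most of the counts. The 175 members held 998096 counts in all, with a median of 748 counts per identifier (quartiles 228 and 3134) and a highest of 85202, at piR-hsa-18071. This member alone took 8.54% of all member counts, the top 10 took 49.6% and the top 20 took 71.8%. At the other end 59 members had under 300 counts. The members just inside the minimum were piR-hsa-3716, piR-hsa-6496 and piR-hsa-20313, each with 105 counts, and the identifiers just outside it were piR-hsa-28212 with 99, piR-hsa-24171 with 95 and piR-hsa-25672 with 93. Each member had at least 1 count in every library, and all 175 passed the filter on low counts used for the test.

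As a group the members took a larger share of the piRNA counts in the libraries labelled TAF1C. They held 8.75%, 8.39% and 8.30% of the counts in the libraries labelled TAF1C and 6.40% and 6.31% in the empty vector libraries. The difference was 2.12 percentage points (exact permutation p = 0.2, two-sided, the smallest value that 3 against 2 libraries allow). The share is set in part by 3 identifiers that are not members and hold most of the counts. One of them, piR-hsa-11361 (30 nt), took 39.2%, 41.6% and 41.6% of the counts in the libraries labelled TAF1C and 41.5% and 41.7% in the empty vector libraries. Under the TMM scaling used for the members below, it was lower with the TAF1C label (log2 fold change -0.34 ± 0.07 (SE), edgeR adjusted p = 0.0005). The other two, piR-hsa-11360 and piR-hsa-11362 (32 nt each), took together 23.4%, 24.3% and 24.8% in the libraries labelled TAF1C and 33.1% and 33.5% in the empty vector libraries. Without these 3 in the denominator the order of the groups turned round: the members held 23.4%, 24.6% and 24.7% of the remaining counts in the libraries labelled TAF1C and 25.2% and 25.4% in the empty vector libraries (exact permutation p = 0.2). This last denominator was added after the shares were seen.

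**Figure D1:**
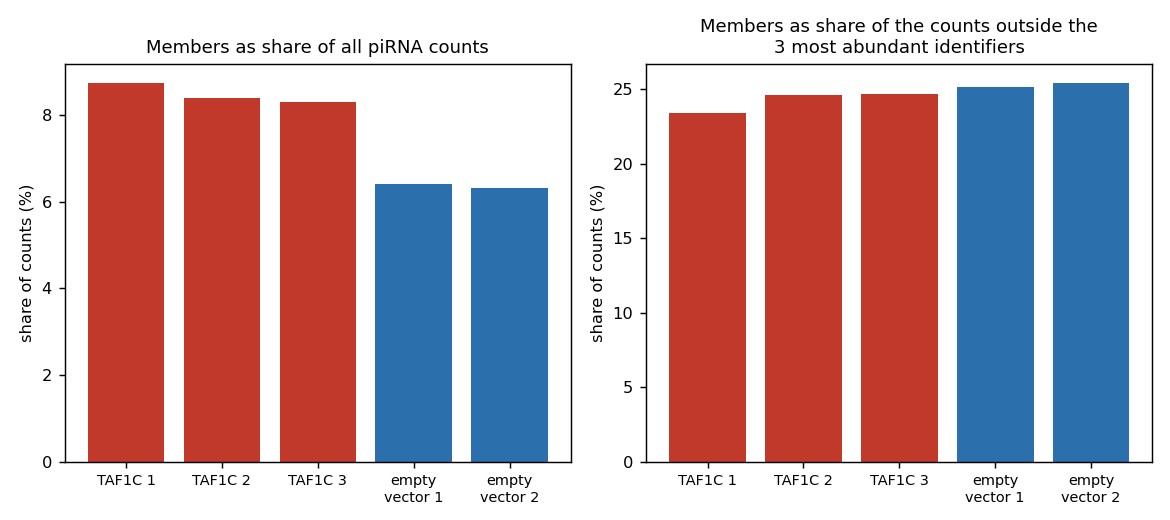
Share of counts (%, bars) taken by the 175 members in each small RNA library, of all piRNA counts (left) and of the counts outside the 3 most abundant identifiers (right). On the left the 3 libraries labelled TAF1C stand at 8.30% or more and the empty vector libraries at 6.40% or less, and on the right the empty vector libraries are the higher ones.

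Set against the miRNA reads of the same library, a denominator outside the piRNA table, the members were again higher with the TAF1C label. They numbered 9952, 9993 and 10657 counts per 1000000 miRNA reads in the libraries labelled TAF1C and 8098 and 8214 in the empty vector libraries (exact permutation p = 0.2). On the same scale all piRNA identifiers together stood at 113748, 119065 and 128473 in the libraries labelled TAF1C and 126513 and 130232 in the empty vector libraries, so that the groups overlapped there (exact permutation p = 0.4). Within the members, the counts of 29 nt over those of 30 nt gave ratios of 0.928, 0.951 and 0.939 in the libraries labelled TAF1C and 1.05 and 1.06 in the empty vector libraries (exact permutation p = 0.2). That difference rested on 1 member: without piR-hsa-18071 the ratios were 0.814, 0.827 and 0.816 in the libraries labelled TAF1C and 0.809 and 0.816 in the empty vector libraries, where the groups overlapped (exact permutation p = 0.6).

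The comparison of single identifiers asked which members differed between the lines. Of the 175 members, 29 were higher and 20 lower in the libraries labelled TAF1C at an adjusted p under 0.05 in edgeR's quasi-likelihood test, and 126 did not pass. Over all 574 identifiers tested, 15.2% were higher, 14.1% lower and 29.3% called in either direction, and the members, with 16.6%, 11.4% and 28%, were near this background. The median log2 fold change was 0.07 over the members and 0.05 over all tested identifiers. Among the other lengths with the same minimum, 30 of 156 identifiers of 26 to 28 nt were higher and 26 lower, and 22 of 134 of 31 nt or more were higher and 25 lower. Called in either direction were 35.9% and 35.1% of these, a larger share than the 28% of the members. Members of 29 nt and of 30 nt gave similar numbers, with 14 higher and 10 lower of 83, and 15 higher and 10 lower of 92.

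Most differences were small. A difference of less than 1.5-fold in either direction was found for 145 of the 175 members, including 25 of the 49 that passed. More than 2-fold separated the groups for 11 members, of which 7 passed as higher and 3 as lower. The precision followed the depth: the 79 members of at least 1000 counts had a median SE of 0.12 on the log2 scale and 41.8% of them passed, and the 96 below had a median SE of 0.25 and 16.7% passed. Over all tested identifiers these shares were 47.1% and 17.8%. All 49 called members had libraries that did not overlap between the groups. Including members that did not pass, 52 lay above and 35 below without overlap, which is 29.7% and 20% of the members against 29.3% and 22.8% of all tested identifiers.

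**Figure D2:**
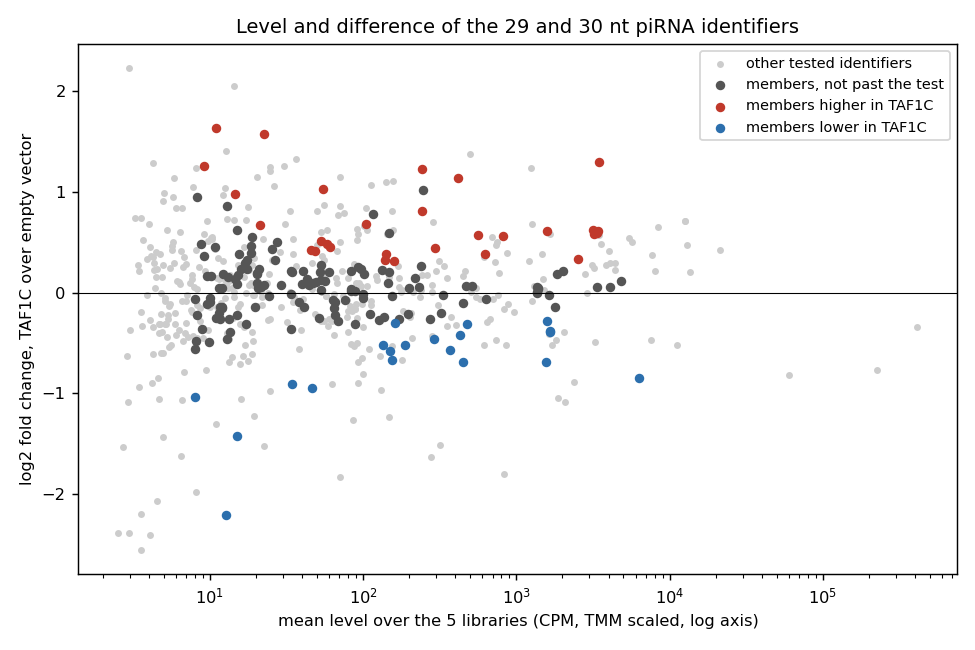
Each point is a tested piRNA identifier, by its mean level over the 5 libraries (CPM, log axis) and its log2 fold change (TAF1C over empty vector). The 29 members higher (red) and 20 lower (blue) in the libraries labelled TAF1C lie over the range of levels of the members, among the other members (dark grey). Light grey points are the identifiers of other lengths or under the minimum, and piR-hsa-11361.

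The most abundant member that rose was piR-hsa-24775, of 30 nt. It was at 4075, 4988 and 4519 CPM in the libraries labelled TAF1C and at 1848 and 1829 CPM with the empty vector, 2.46-fold higher (log2 fold change 1.30 ± 0.10 (SE), edgeR adjusted p = 6.54e-11). The lowest library labelled TAF1C was thus well above both empty vector libraries, which lay close together. The other large rises were in members of lower level. piR-hsa-23326 (30 nt) stood at 543, 499 and 549 CPM in the libraries labelled TAF1C and at 221 and 261 CPM with the empty vector (log2 fold change 1.14 ± 0.12 (SE), edgeR adjusted p = 1.96e-08). piR-hsa-28478 (29 nt) stood at 365, 269.5 and 302 CPM in the libraries labelled TAF1C and at 134 and 133 CPM with the empty vector (1.22 ± 0.13 (SE), edgeR adjusted p = 3.27e-08). In both the groups were well apart, and for piR-hsa-28478 replicate 1 was the highest of the libraries labelled TAF1C.

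Among rare members, piR-hsa-11080 (29 nt) had 104, 57 and 75 counts in the libraries labelled TAF1C and 28 and 30 counts in the empty vector libraries. This came to 36.6, 22.6 and 33.5 CPM in the libraries labelled TAF1C and 11.1 and 9.71 CPM with the empty vector (log2 fold change 1.57 ± 0.25 (SE), edgeR adjusted p = 2e-05). piR-hsa-26946 (29 nt), which had the highest log2 fold change of the members, had 61, 20 and 35 counts in the libraries labelled TAF1C and 14 and 13 in the empty vector libraries (1.64 ± 0.40 (SE), edgeR adjusted p = 0.00419). Its libraries labelled TAF1C were wide apart, between 7.94 and 21.5 CPM, and replicate 2 lay nearest to the empty vector libraries, at 5.57 and 4.21 CPM. piR-hsa-14532 (29 nt) had 35, 28 and 28 counts in the libraries labelled TAF1C and 12 and 16 in the empty vector libraries (1.25 ± 0.33 (SE), edgeR adjusted p = 0.00369), and it did not pass with DESeq2 (adjusted p = 0.156). Both reached the minimum of 100 counts through the libraries labelled TAF1C: at their mean level with the empty vector, 5 libraries would hold 64.6 counts of piR-hsa-26946 and 65.7 of piR-hsa-14532. Of the 175 members, 8 were of this kind, of which 2 passed as higher and 2 as lower.

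The most abundant member of all was among those that fell. piR-hsa-18071 (29 nt) was at 4591, 5021 and 4852 CPM in the libraries labelled TAF1C and at 8564 and 8777 CPM with the empty vector (log2 fold change -0.85 ± 0.09 (SE), edgeR adjusted p = 9.46e-09). Both groups were tight, and the empty vector level was 1.80-fold the level in the libraries labelled TAF1C. Within each library its count was a steady fraction of that of piR-hsa-11362, at 0.102, 0.104 and 0.108 in the libraries labelled TAF1C and 0.107 and 0.107 in the empty vector libraries. Against piR-hsa-11360 the ratio varied more and did not overlap between the groups, at 0.0281, 0.0278 and 0.0264 in the libraries labelled TAF1C and 0.0294 and 0.0286 in the empty vector libraries. These 2 non-members had log2 fold changes of -0.82 ± 0.08 and -0.77 ± 0.07 (SE). A ratio between members does not depend on the scaling of the libraries: piR-hsa-24775 had 0.888, 0.993 and 0.931 counts for each count of piR-hsa-18071 in the libraries labelled TAF1C and 0.216 and 0.208 in the empty vector libraries, so that the most abundant rise and the most abundant fall were nearly equal in number with the TAF1C label and far apart with the empty vector. The choice of these ratios followed from their values.

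The deepest falls were in rare members. 2 of those named here, piR-hsa-25440 and piR-hsa-6496, reached the minimum of 100 counts through the empty vector libraries, so their place among the falls follows in part from that minimum: at their mean level in the libraries labelled TAF1C, 5 libraries would hold 69.9 and 73.4 counts. piR-hsa-25440 (30 nt) had 12, 8 and 19 counts in the libraries labelled TAF1C and 63 and 71 in the empty vector libraries. In CPM these were 4.22, 3.18 and 8.48 in the libraries labelled TAF1C and 25.1 and 23.0 with the empty vector (log2 fold change -2.20 ± 0.31 (SE), edgeR adjusted p = 3.77e-06). piR-hsa-31179 (29 nt) had 21, 28 and 19 counts in the libraries labelled TAF1C and 52 and 84 in the empty vector libraries (-1.42 ± 0.26 (SE), edgeR adjusted p = 8.83e-05). For both, each library labelled TAF1C lay far below each empty vector library in CPM. piR-hsa-7221 (30 nt) was at 26.4, 38.1 and 38.0 CPM in the libraries labelled TAF1C and 64.1 and 66.4 CPM with the empty vector (-0.94 ± 0.16 (SE), edgeR adjusted p = 5.31e-05), and piR-hsa-17520 (29 nt) at 24.3, 21.8 and 30.4 CPM with the TAF1C label and at 54.1 and 41.4 CPM with the empty vector (-0.91 ± 0.19 (SE), edgeR adjusted p = 0.000424). piR-hsa-6496 (30 nt) had 14, 15 and 13 counts in the libraries labelled TAF1C and 40 and 23 in the empty vector libraries (-1.04 ± 0.36 (SE), edgeR adjusted p = 0.0270). Its empty vector libraries differed more from each other than replicate 2 of them did from the libraries labelled TAF1C, and it passed in only 2 of the 12 other settings, with a log2 fold change of -0.44 and an adjusted p = 0.645 without empty vector replicate 1.

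**Figure D3:**
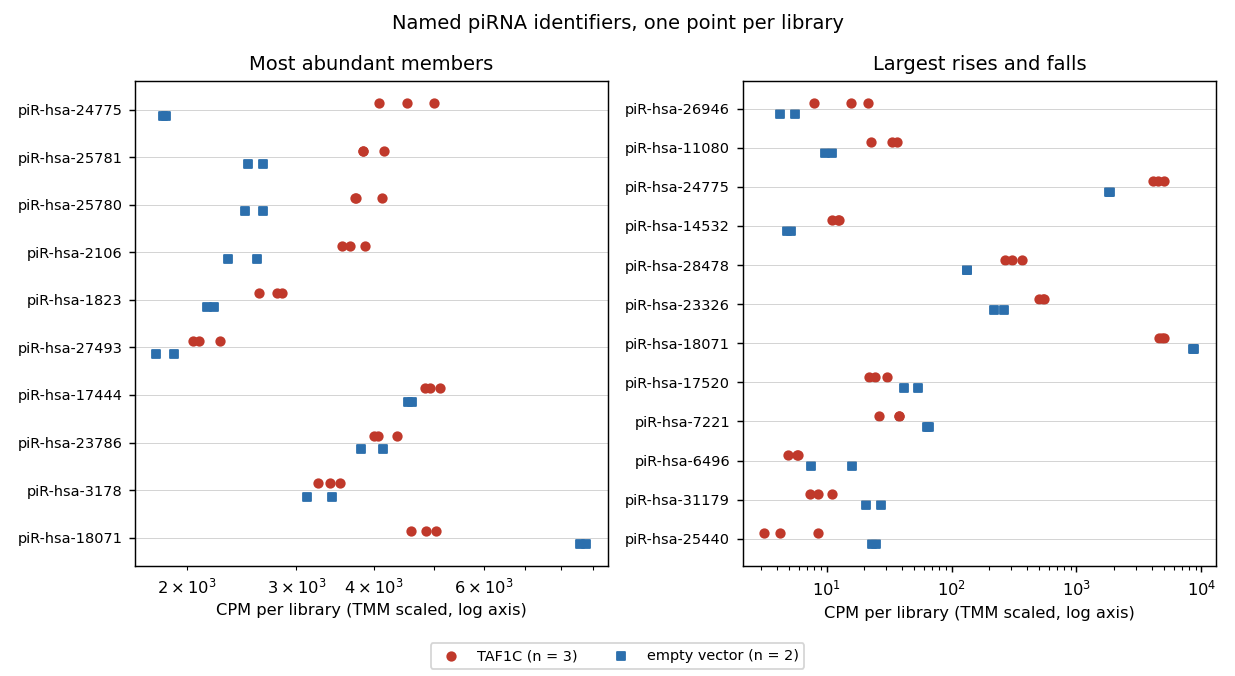
Level (CPM, log axis) of the 10 most abundant members (left) and of the 6 largest rises and 6 largest falls (right), 1 point per library, with the libraries labelled TAF1C as red circles above the empty vector libraries as blue squares. piR-hsa-24775 and piR-hsa-18071 are in both panels, with their groups apart in opposite directions, and the 3 members piR-hsa-17444, piR-hsa-23786 and piR-hsa-3178 have groups close together or overlapping.

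The other abundant members split into risers of about 1.5-fold and members that rose less or did not pass. piR-hsa-25780 (29 nt) stood at 3740, 4110 and 3732 CPM in the libraries labelled TAF1C and at 2481 and 2655 CPM with the empty vector, 1.503-fold higher (edgeR adjusted p = 1.94e-05). piR-hsa-25781 (30 nt) and piR-hsa-2106 (29 nt) had the same size of rise, with log2 fold changes of 0.61 ± 0.09 and 0.58 ± 0.09 (SE). piR-hsa-1823 (30 nt) stood at 2840, 2786 and 2613 CPM in the libraries labelled TAF1C and at 2208 and 2151 CPM with the empty vector (0.33 ± 0.09 (SE), edgeR adjusted p = 0.00682), and this call was lost in 4 of 12 other settings, among them each fit without 1 empty vector library. 4 abundant members did not pass. piR-hsa-17444 (29 nt) had 4835, 5111 and 4912 CPM in the libraries labelled TAF1C and 4610 and 4539 CPM with the empty vector (0.11 ± 0.09 (SE), edgeR adjusted p = 0.373). piR-hsa-23786, piR-hsa-3178 and piR-hsa-27493 had log2 fold changes of 0.06 ± 0.09, 0.05 ± 0.09 and 0.21 ± 0.10 (SE), with edgeR adjusted p = 0.723, 0.742 and 0.107. All 4 passed as higher under each of the other 3 scalings.

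There were 33 further called members. The 19 that were higher had log2 fold changes between 0.31 and 1.03, with a median of 0.52, and the 14 that were lower had changes between -0.69 and -0.28, with a median of -0.49. Among the rises piR-hsa-1873 (29 nt) stood at 67.9, 69.9 and 69.7 CPM in the libraries labelled TAF1C and at 33.4 and 34.3 CPM with the empty vector, with each group within a narrow band (1.03 ± 0.15 (SE), edgeR adjusted p = 4.27e-06). piR-hsa-1191 (29 nt) rose with a wider spread, at 216, 349 and 314 CPM in the libraries labelled TAF1C (lowest in replicate 1) and at 163 and 170.3 CPM with the empty vector (0.81 ± 0.18 (SE), edgeR adjusted p = 0.00695). Among the falls piR-hsa-23619 (30 nt) stood at 1187, 1231 and 1320 CPM in the libraries labelled TAF1C and at 1862 and 2163 CPM with the empty vector (-0.69 ± 0.10 (SE), edgeR adjusted p = 4.17e-06). At the lower end of the called differences piR-hsa-2750 (29 nt) had 1470, 1525 and 1356 CPM in the libraries labelled TAF1C and 1805 and 1725 CPM with the empty vector (-0.28 ± 0.10 (SE), edgeR adjusted p = 0.0259). These 4 were chosen as examples with their values known.

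The balance of rises and falls depended on the scaling. The values above use TMM, under which the 574 tested identifiers had a median of 0.05. With library totals that median was 0.36 and with the miRNA reads of each library as its size it was 0.27. The members moved with it, to medians of 0.39 and 0.29. Of the 175 members, 79 were then higher and 7 lower with library totals, and 55 higher and 10 lower with miRNA reads, so that 91.9% and 84.6% of the called members were higher, against 59.2% with TMM. The whole table moved in the same way: 36.2% of the 574 tested identifiers were higher and 6.97% lower with library totals, beside 45.1% and 4% of the members, and 27.4% were higher and 7.84% lower with miRNA reads, beside 31.4% and 5.71% of the members. All 29 members raised under TMM were raised under both, while 7 and 10 of the 20 lowered ones stayed lowered. With library totals 3 called members had a log2 fold change of the opposite sign to that under TMM, and with miRNA reads 0 had. Small falls under TMM thus depend on the scaling for their direction as well as for their call. Without replicate 1 of the empty vector, 16 members passed as higher and 15 as lower, and without replicate 2 these numbers were 19 and 15. In these fits the libraries labelled TAF1C alone give the spread, and the shares of members, 9.14% and 8.57%, and 10.9% and 8.57%, were near those of all tested identifiers, 9.61% and 10.6%, and 10.3% and 10.5%. Of the 16 named members that passed, 13 did so in every other setting that kept both empty vector libraries. The exceptions were piR-hsa-14532, piR-hsa-1823 and piR-hsa-6496. These settings refit the same counts, and the largest rises and falls were named for passing, so this adds no further test. Among the 13, piR-hsa-26946 and piR-hsa-25440 reached the minimum through their higher group. Also among them, piR-hsa-2106, piR-hsa-25780 and piR-hsa-25781 carried nearly the same counts.

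**Figure D4:**
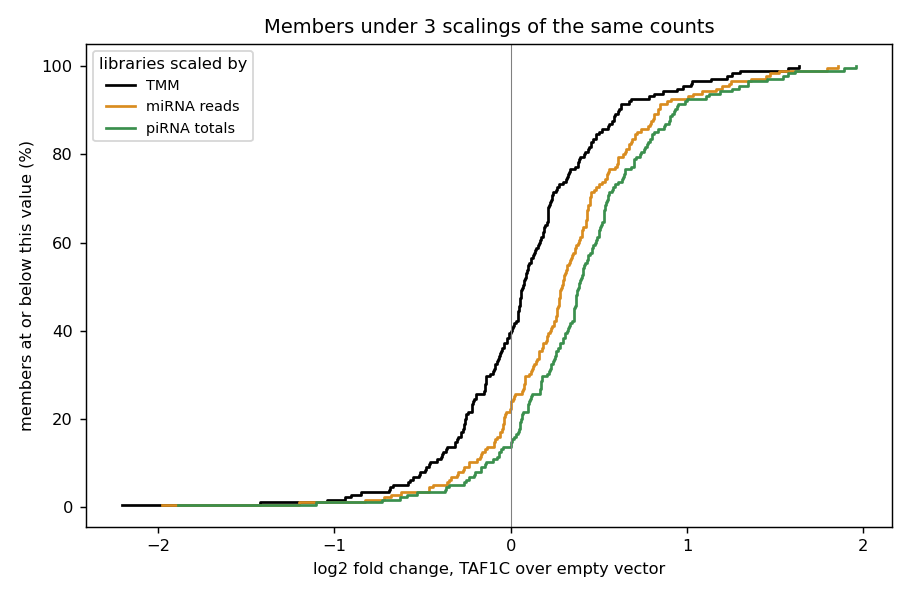
Share of the 175 members (%) at or below each log2 fold change (TAF1C over empty vector), with the same counts scaled by TMM (black), by the miRNA reads of each library (orange) and by piRNA totals (green). The curves keep their shape and are shifted sideways, with medians of 0.07, 0.29 and 0.39.

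Some members carried nearly the same counts in each library. Among the 79 members of at least 1000 counts, 15 fell into 5 sets whose counts lay within 10% of a neighbour's in every library, a limit set after the counts were seen. The 5 consecutive identifiers piR-hsa-26681 to piR-hsa-26685, 2 of 29 nt and 3 of 30 nt, had between 4245 and 4300 counts in replicate 1 labelled TAF1C, 3232 to 3433 in replicate 2 and 2880 to 3017 in replicate 3. In the empty vector libraries they had 3301 to 3488 and 4103 to 4220 counts. None of the 5 passed the test, and their log2 fold changes lay between 0.0013 and 0.058. In the set of piR-hsa-2106, piR-hsa-18709, piR-hsa-25780 and piR-hsa-25781, which rose together by 0.58 to 0.62, the counts were 10080 to 10901, 9725 to 10461 and 8065 to 8595 in the libraries labelled TAF1C and 5743 to 6302 and 7644 to 8200 in the empty vector libraries. The pair piR-hsa-29715 and piR-hsa-29716 fell together, by 0.40 and 0.38 on the log2 scale, with 4933 and 4945, 3369 and 3471, and 3009 and 2994 counts in the libraries labelled TAF1C, and 5342 and 5278, and 5403 and 5483 in the empty vector libraries. The remaining sets were piR-hsa-28319 with piR-hsa-28397 and piR-hsa-317 with piR-hsa-515. Whether the members of a set share sequence or reads was not tested, and the sources used here do not say how reads matching several identifiers were counted. With each set counted once, 26 of 165 members were higher and 18 lower.

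Neighbouring numbers did not always go together. There were 26 pairs of members with consecutive numbers, and in 11 of them the log2 fold changes lay within 0.2 of each other. In 4 pairs both members passed in the same direction, in 7 pairs 1 member passed, and in 14 none did. In the remaining pair the directions were opposite: piR-hsa-23326 (30 nt), described above, rose, and piR-hsa-23327 (29 nt) fell to 361, 366 and 360 CPM in the libraries labelled TAF1C, against 558 and 609 CPM with the empty vector (-0.69 ± 0.11 (SE)). Within a library piR-hsa-23326 had 1.502, 1.36 and 1.52 counts for each count of piR-hsa-23327 in the libraries labelled TAF1C and 0.396 and 0.429 in the empty vector libraries, so that the order of this pair turned round between the groups whatever the scaling. For comparison, piR-hsa-21508 (29 nt) and piR-hsa-21509 (30 nt) rose together and kept their ratio, at 0.509, 0.490 and 0.531 in the libraries labelled TAF1C and 0.512 and 0.540 in the empty vector libraries. Both pairs were picked with their values known.

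Many genes that make or use piRNAs were at low level in the long RNA of the same lines. Of 30 genes of the piRNA pathway, 17 had the level needed for a test, 15 stayed under 1 CPM in every library labelled TAF1C and 7 stayed under it in every library of both groups. Of these 17, 3 were higher in the libraries labelled TAF1C, 3 lower and 11 did not pass, against a background of 15.6% higher, 22.3% lower and 37.9% called in either direction over all 18402 genes tested. Their median log2 fold change was -0.60, beside -0.10 over all genes tested, a value that was -0.32 with library totals. The empty vector libraries were apart for several of them, in both directions. TDRD9 was at 0.684, 1.18 and 1.33 CPM in the libraries labelled TAF1C and at 35.7 and 0.924 CPM with the empty vector. PIWIL4, MOV10L1 and BTBD18 were also higher in replicate 1 of the empty vector than in its replicate 2. The other way, PLD6 was at 5.70, 5.29 and 5.04 CPM in the libraries labelled TAF1C and at 5.69 and 18.5 CPM with the empty vector. TEX15, DNMT3L, PRMT5 and WDR77 were also higher in replicate 2 of the empty vector. The transcripts of the PIWI genes were low. PIWIL1 was at 0.627, 0.324 and 0.495 CPM in the libraries labelled TAF1C and at 2.04 and 0.0355 CPM with the empty vector, and PIWIL3 at 0.314, 0.353 and 0.433 CPM in the libraries labelled TAF1C and 1.19 and 0 CPM with the empty vector, both too low for the test. PIWIL2 was at 0.599, 0.824 and 0.990 CPM in the libraries labelled TAF1C and 2.16 and 1.46 CPM with the empty vector (edgeR adjusted p = 0.0681). For PIWIL4 each library labelled TAF1C lay between the empty vector libraries, which were at 2.79 and 0.853 CPM. DDX4, MAEL and TDRD1, cofactors of piRNA production in germ cells, stayed at or under 1.26 CPM in every library, and so did ASZ1, GTSF1 and RNF17.

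SPOCD1, which in mice links piRNA guidance to DNA methylation of transposons, was at 36.8, 38.6 and 37.5 CPM in the libraries labelled TAF1C and at 3.68 and 2.35 CPM with the empty vector (log2 fold change 3.64 ± 0.24 (SE), edgeR adjusted p = 0.000513). It was higher in 3 of 3 libraries and was the one pathway gene that stayed raised in every fit without 1 library labelled TAF1C. PRMT5, the methyltransferase that marks arginines of PIWI proteins and of many splicing proteins, and its partner WDR77 rose by 0.88 ± 0.22 and 0.84 ± 0.23 (SE) with edgeR adjusted p = 0.0291 and 0.0360. Neither passed with DESeq2 (adjusted p = 0.0541 and 0.0699), and WDR77 did not pass with no filter (0.0667). PRMT5 was at 66.5, 64.3 and 70.8 CPM in the libraries labelled TAF1C and 27.8 and 45.4 CPM with the empty vector. Lower in the libraries labelled TAF1C were TDRD7, a Tudor protein, at 4.16, 3.62 and 3.12 CPM against 15.6 and 7.36 CPM with the empty vector (edgeR adjusted p = 0.0195), and TEX15, which acts with PIWI proteins in mouse germ cells, at 25.2, 29.6 and 26.4 CPM against 40.03 and 107.7 CPM with the empty vector (edgeR adjusted p = 0.0348). DNMT3L, a cofactor of DNA methylation, was at 0.285, 0.588 and 0.680 CPM in the libraries labelled TAF1C and 1.30 and 3.13 CPM with the empty vector (edgeR adjusted p = 0.0355). TDRD7 did not pass with the replicate number as a block (edgeR adjusted p = 0.0671), and TEX15 did not pass with no filter (edgeR adjusted p = 0.0949). MOV10, MYBL1 and TDRKH, the most abundant genes that did not pass, had log2 fold changes of 0.39 ± 0.13, 0.30 ± 0.27 and -0.60 ± 0.20 (SE). Without any 1 library labelled TAF1C, 1 gene was higher and 0 lower, of 16 or 17 pathway genes tested. The shares over all genes in these fits are not given here, so the counts are no result about the pathway. Sizes also depended on the empty vector library kept. Without its replicate 1 or 2, the log2 fold change of PRMT5 was 0.50 or 1.24, and that of TEX15 was -2.06 or -0.60.

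**Figure D5:**
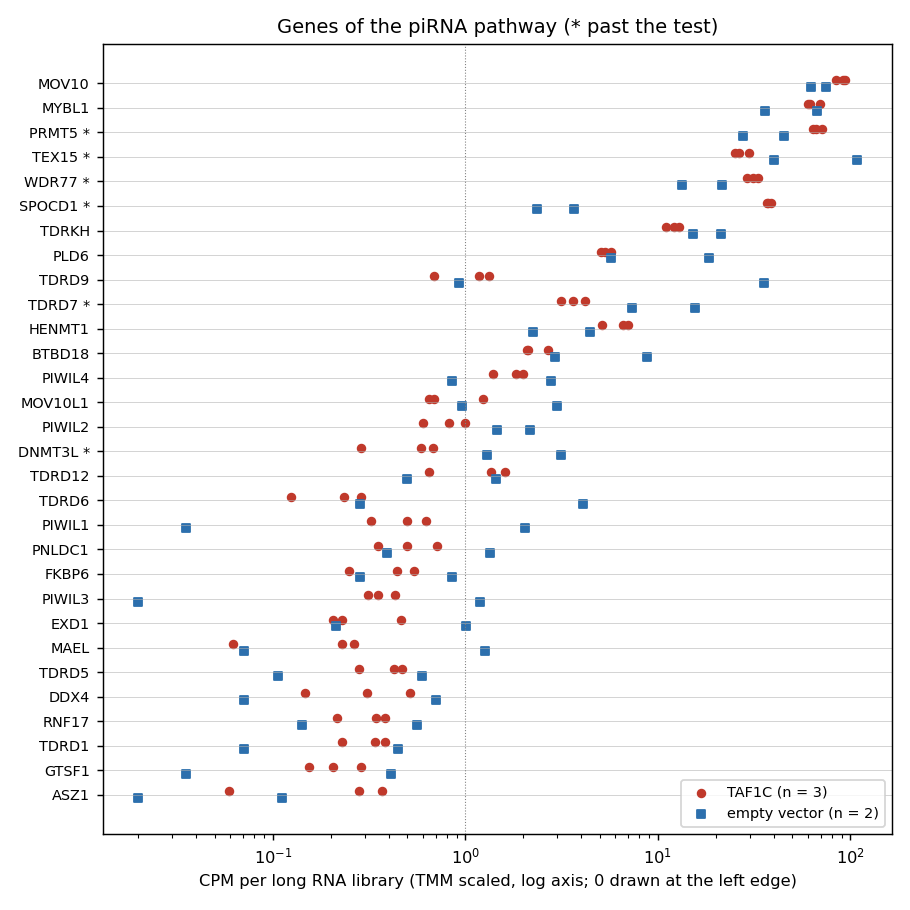
Level (CPM, log axis) of the 30 genes of the piRNA pathway in each long RNA library, with the libraries labelled TAF1C as red circles above the empty vector libraries as blue squares. A star marks the 6 genes past the test, and every PIWI gene but PIWIL4 lies left of the dotted line at 1 CPM in the libraries labelled TAF1C. A level of 0 is drawn at the left edge.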

How the data were processed

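Small RNA (3 libraries labelled TAF1C, 2 empty vector) and long RNA (the same numbers) were measured. Per the labels' protocols, RNA came from the mirVana kit, with NEBNext small RNA libraries and ribosomal RNA depleted NEBNext Ultra libraries. Per the submitters' processing notes, which give no roles or settings, the work used hg19 with DESeq2, HISAT2, Cufflinks 2.2.1, Bowtie2 2.2.4 and Trimmomatic 0.36. The authors deposited raw counts per piRNA identifier, with its length, and raw counts per gene, and a normalized miRNA signal. The deposited signal lay, within a tolerance of 0.05, on whole multiples of 1 step per library, and 1 step was taken as 1 read to give the miRNA reads, although the lowest values were 3 or 4 steps.

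Counts were tested with the robust quasi-likelihood test of edgeR 4.0.16 (R 4.3.3), TMM scaling and no covariate, two-sided, with Benjamini-Hochberg adjustment over all 574 identifiers kept by filterByExpr, or all 18402 genes of at least 1 CPM in 2 libraries. The scripts were tested on simulated data. The SE is the log2 fold change over the root of F. Single values per library were tested by exact permutation. DESeq2 1.42.0 was an alternative. Python 3.11.15, pandas 2.3.3 and matplotlib 3.10.9 were used. Named were the 5 most abundant members of each length, the 6 largest rises and 6 largest falls among called members whose libraries did not overlap, those next to the minimum, and pathway genes past the test with the 3 most abundant others. Any other identifier was picked with its values known. The members, lists and tests were chosen with earlier results of these data known.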

Additional observations from a re-analysis of the deposited data

How the results depend on the processing

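The number of raised members, 29, was 79 with library totals, 77 with totals without piR-hsa-11361, 55 with miRNA reads and 19 with DESeq2, and 16 to 34 with 1 library left out. All tested identifiers gave 208, 204 and 157 higher of 574 under those 3 scalings, and 12.1% to 18% with 1 library labelled TAF1C left out. With DESeq2 59 of 3804 were higher, but that fit had no filter on low counts. Its 3804 were all identifiers with a count, so this share is not a like background for members of at least 100 counts. The lowered members, 20, were 7, 8 and 10 under those 3 scalings and 18 with DESeq2. Under the 3 scalings this was 4%, 4.57% and 5.71% of the members, beside 6.97%, 7.14% and 7.84% of all tested identifiers. With 1 library labelled TAF1C left out, 15 to 21 were lowered. That was 8.57% to 12% of the members, beside 12.1% to 16.6% of all tested identifiers. The members' median, 0.07, was 0.39, 0.36 and 0.29 under these scalings, 0.041 with DESeq2, 0.010 with no filter, 0.088 at a minimum of 200 counts and -0.014 to 0.088 with 1 library left out. The share difference of 2.12 points was -1.08 without the 3 most abundant identifiers, and the ratio of lengths, -0.119, was 0.0065 without the top member. With the replicate number as a block, 21 members rose and 15 fell. This was 12% and 8.57% of the members, beside 12% and 9.58% of all tested identifiers. Deviations of libraries with the same number correlated by 0.16 and 0.02, and nothing in the labels pairs them. piR-hsa-3178 changed sign with no filter (-0.0020), and with 1 library left out it lay between -0.034 and 0.11, and piR-hsa-23786 between -0.040 and 0.11, none of these called. Of 240 values of named members, 207 kept direction and side of the threshold, 15 lost and 13 gained the call. Of the pathway genes 1 to 6 rose and 0 to 6 fell when a library was left out, and 2 rose and 5 fell with DESeq2. MYBL1 was between -0.11 and 0.75 with 1 library left out. TAF1C was at -0.36 with library totals and 0.023 with DESeq2, and between -0.36 and -0.057 with 1 library left out. The cause was not tested in any of these. Fits with 1 empty vector library assume that it varies like the libraries labelled TAF1C. The 59 members under 300 counts had a median SE of 0.28, between 0.22 and 0.40, which limits the differences they can show.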

Other observations

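Single libraries stood apart from their group for a few members. piR-hsa-19620 (29 nt) was at 432, 239 and 248 CPM in the libraries labelled TAF1C and at 159 and 144 CPM with the empty vector, and it did not pass the test although its libraries did not overlap. A level over 1.5 times that of both other libraries labelled TAF1C was found for 3 members in replicate 1, 1 in replicate 2 and 2 in replicate 3, which is 1.71%, 0.571% and 1.14% of the members. Over all tested identifiers it was 4.53%, 1.39% and 1.74%. A level as far below both others was found for 1, 5 and 2 members, beside 2.44%, 4.88% and 3.31% of all tested identifiers. Between the empty vector libraries, 6 members were over 1.5 times higher in replicate 1 and 5 in replicate 2, which is 3.43% and 2.86% of the members and, over all tested identifiers, 5.57% and 6.1%. The SD of the log2 difference over the members was 0.374, 0.334 and 0.338 between pairs labelled TAF1C and 0.283 between the empty vector libraries. Over all tested identifiers it was 0.506, 0.491 and 0.459 between pairs labelled TAF1C and 0.396 between the empty vector libraries. These members were picked after their values were seen.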
